A study of Homo sapiens with 8 samples.

Results

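The promoters described here were protein-coding promoters whose H3K4me3 peaks were shorter in every ZBTB48 knockout (KO) clone than in every wild-type (WT) clone. A promoter was the region 3 kb to either side of the annotated 5′ end of a protein-coding gene on chromosomes 1 to 22, and its covered length counts the bp of that window that lie under peaks. Members were chosen by the covered length in all 6 peak lists. The lowest of the 3 WT values had to exceed the highest of the 3 KO values by at least 500 bp, a difference called the gap below, and at least 1 KO list had to hold a peak no further than 1 kb from the 5′ end. This gave 604 promoters of 19111, or 4.34% of the 13908 promoters with a peak in the window in at least 1 list. Since the rule used all 6 lists, every difference between genotypes at these promoters is given as a description without a test.

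The study performed H3K4me3 ChIP-seq in U2OS, an osteosarcoma cell line of human origin with telomerase-independent telomere maintenance, to ask how loss of ZBTB48 changes this mark at promoters. WT and ZBTB48 KO U2OS clones all received IFNγ at 250 U/ml over 24 h, and no untreated library was part of the series. Each genotype had 3 lists of broad peaks, 1 per library and each library from a different clone, so a difference between genotypes also holds differences between clones. The 2 WT input libraries were not analysed here.

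H3K4me3, the trimethylation of lysine 4 of histone H3, marks active and poised promoters. It is placed by the SETD1 and MLL (KMT2) methyltransferase complexes, which are drawn to unmethylated CpG islands, and it usually forms a block around the 5′ end that reaches further into the gene than upstream of it. ZBTB48 (also TZAP) is a zinc finger protein that binds telomeric repeats and the promoters of a small set of genes. A peak list records how far a block was called, not how strong the mark was. In bulk chromatin, fewer cells with the mark and less of the mark per cell cannot be told apart.

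The WT lists were of different kinds, which matters for every value below. The median peak width was 2310 and 2365 bp in WT replicates 1 and 2, 1483 bp in WT replicate 3, and 1271 to 1385 bp in the KO lists. The median fold enrichment, the ChIP signal over local background given by the peak caller, was 13.6 and 14.1 in WT replicates 1 and 2 and 4.18 to 4.63 in the other 4 lists. WT replicates 1 and 2 therefore stood apart, and the counts and sides are also given with WT replicate 3 as the only WT list. Whether the list kind contributes to the lengths was not tested. Of 7 osteosarcoma and mesenchymal markers 5, namely RUNX2, COL1A1, SPARC, VIM and CDH11, had a peak in all 6 lists, while COL1A2 and TWIST1 had none. Of 14 markers of other cell types 11 had no peak within 1 kb in any list, among them PTPRC, CD3E and ALB, and 2 had one in all 6.

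RGMB, TEAD3 and PPDPF, which had the largest gaps after COG5 at separate loci, show what was kept and what was lost in the sequence itself. For each, 150 bases from the longest stretch covered in all WT and no KO lists are set beside 150 bases covered in all 6 lists, both free of annotated exons, read 5′ to 3′ on the gene's strand from GRCh38. The kept window is the one nearest the 5′ end that met these conditions. The lost window is the one nearest the middle of its stretch. A contrast between the middle and the edge of a block is therefore built into the choice. Capitals mark CpG dinucleotides.

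RGMB lost, chr5:98772111-98772260, plus strand: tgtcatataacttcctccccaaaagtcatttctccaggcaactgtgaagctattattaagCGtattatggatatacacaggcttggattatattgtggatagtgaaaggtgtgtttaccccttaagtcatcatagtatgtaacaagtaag

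RGMB kept, chr5:98774207-98774356, plus strand: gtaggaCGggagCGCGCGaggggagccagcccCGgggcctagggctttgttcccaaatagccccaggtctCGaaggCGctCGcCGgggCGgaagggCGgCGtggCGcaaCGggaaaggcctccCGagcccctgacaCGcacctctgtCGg

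TEAD3 lost, chr6:35495244-35495393, minus strand: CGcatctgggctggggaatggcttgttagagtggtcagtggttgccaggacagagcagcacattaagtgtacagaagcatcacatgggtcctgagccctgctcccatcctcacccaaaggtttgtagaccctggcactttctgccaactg

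TEAD3 kept, chr6:35497080-35497229, minus strand: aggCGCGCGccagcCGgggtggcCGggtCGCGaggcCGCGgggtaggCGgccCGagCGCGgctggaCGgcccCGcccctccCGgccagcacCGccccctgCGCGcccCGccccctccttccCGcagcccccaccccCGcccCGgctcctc

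PPDPF lost, chr20:63522539-63522688, plus strand: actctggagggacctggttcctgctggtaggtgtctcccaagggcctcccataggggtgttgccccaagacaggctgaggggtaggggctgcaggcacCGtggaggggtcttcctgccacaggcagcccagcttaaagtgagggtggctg

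PPDPF kept, chr20:63520615-63520764, plus strand: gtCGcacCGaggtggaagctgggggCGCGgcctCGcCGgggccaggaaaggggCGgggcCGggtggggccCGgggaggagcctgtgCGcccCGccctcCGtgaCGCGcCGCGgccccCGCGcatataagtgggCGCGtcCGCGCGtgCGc

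The lost windows of RGMB, TEAD3 and PPDPF held 1 CpG each, and their kept windows held 17, 23 and 24. The lost window of TEAD3 lay in an intron of the gene, 1686 to 1835 bp downstream of the 5′ end. That of RGMB lay 1552 to 1403 bp upstream, and that of PPDPF 1774 to 1923 bp downstream and beyond the end of its short transcript.

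The same contrast held over the members as a whole. The stretches covered in every WT list and no KO list came to 450231 bp and held 2.37 CpG per 100 bp, with a GC content of 47.5%. The stretches covered in all 6 lists came to 1214971 bp and held 6.78 CpG per 100 bp, with a GC content of 60.5%. The bases of the windows covered in no list came to 922650 bp and held 1.53 CpG per 100 bp. Bases covered in some lists but in neither of the first classes were not counted here. CpG density was lower in the lost than in the kept bases in 558 of the 585 members with at least 200 bp of each. The edges and the middle of the peaks at other promoters were not compared.

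Lost bases lay in introns more often and in exons less often than kept bases. Introns of protein-coding genes made up 68.2% of the lost and 54.4% of the kept bases. Coding exons made up 5.85% and 9.36%, exons of UTRs or non-coding transcripts 5.24% and 18.7%, and sequence outside any gene 14.9% and 11.5%. An annotated transcript 5′ end lay in the lost stretch of 63 members and in the kept stretch of 581. Annotated 5′ ends were spaced at 0.220 per kb of lost and 1.85 per kb of kept sequence. The bases lost were thus mainly the flanks of the block, and for most members the annotated start itself stayed under a peak. The rule asked for a KO peak within 1 kb of the 5′ end, so this is in part a property of the choice. Other promoters were not compared here.

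The covered length over the 604 members had a median of 4257.5 bp in WT replicate 1, 4183 bp in WT replicate 2 and 3135.5 bp in WT replicate 3. It had a median of 2277 bp in KO replicate 1, 2153 bp in KO replicate 2 and 2054.5 bp in KO replicate 3. The 3 WT medians averaged 3859 ± 627 bp (SD, n = 3) and the 3 KO medians 2161.5 ± 111 bp (SD, n = 3), a difference of 1697 bp that the rule itself required to be positive. The KO lists resembled each other more than the WT lists did. The median range over a member's 3 values was 269 bp in KO and 1108 bp in WT, against 296 and 1343 bp at the other covered promoters.

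**Figure D1:**
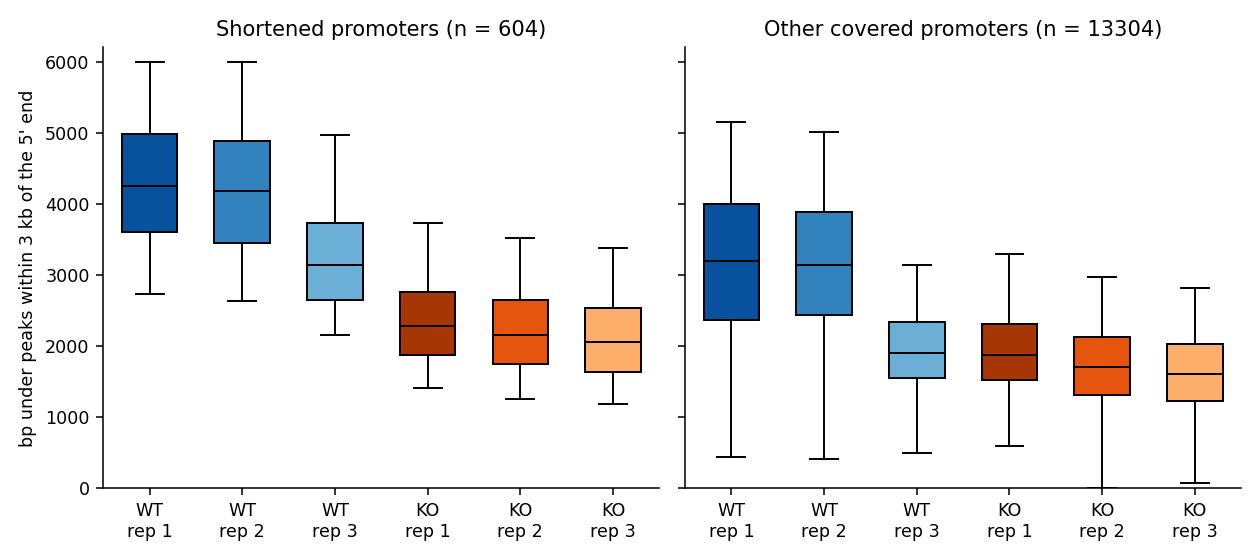
Covered length within 3 kb of the 5′ end (bp, vertical axis) in each list for the 604 shortened promoters and the 13304 other covered promoters. Boxes span the quartiles, the line is the median and whiskers run from the 5th to the 95th percentile. WT replicate 3 has a median of 3135.5 bp at the shortened promoters, above all KO lists, and of 1907 bp at the others, close to the 1878 bp of KO replicate 1.

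At the other covered promoters the medians were 3198, 3144.5 and 1907 bp in WT replicates 1 to 3 and 1878, 1707.5 and 1609 bp in the KO lists. WT replicates 1 and 2 were thus longer than every KO list there too, while WT replicate 3 differed little from KO replicate 1. Among all covered promoters the lowest WT value exceeded the highest KO value by any length at 7093, or 51%. The median gap was 4 bp over all covered promoters and 727.5 bp over the members. The gap of 500 bp in the rule, not the order of the lists, is therefore what sets the members apart.

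The list that decided membership was mostly WT replicate 3. It held the lowest WT value at 558 members, while WT replicates 1 and 2 held it at 23 each. The highest KO value was that of KO replicate 1 at 429 members, KO replicate 2 at 131 and KO replicate 3 at 44. Without WT replicate 3 the rule took 10788 promoters, and without KO replicate 1 it took 1281.

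With WT replicate 3 as the only WT list, 672 promoters (4.83%) passed the rule, which were the 604 members and 68 others. In the opposite direction, 21 promoters (0.151%) had every KO value at least 500 bp above WT replicate 3. The same reversed rule with all 3 WT lists found 0 promoters (0%). The median lead of WT replicate 3 over the highest KO value was 735 bp over the members and 14 bp over all covered promoters. Against single lists, WT replicate 3 led KO replicates 1, 2 and 3 by medians of 761, 917 and 1046 bp at the members and of 23, 177 and 276 bp at the other covered promoters.

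The same measure was then taken in lists that had no part in a choice. Promoters were chosen on WT replicates 1 and 2 and on a pair of KO lists by the same rule, and WT replicate 3 was compared with the KO list left out. With KO replicate 1 left out, 11618 promoters were chosen, and WT replicate 3 led it by at least 500 bp at 751 (6.46%) and trailed by as much at 663 (5.71%). Over all 13691 promoters covered in either of these lists, the shares were 7.07% and 6.84%. With KO replicate 2 left out, WT replicate 3 led at 1357 of 10825 (12.5%), against 14.1% of all, and trailed at 0.988%, against 1.52% of all. With KO replicate 3 left out, it led at 2263 of 10818 (20.9%), against 21.5% of all, and trailed at 0.666%, against 1.32%. Leads of WT replicate 3 far outnumbered the reverse against KO replicates 2 and 3, and were about as common as the reverse against KO replicate 1. With each KO list left out, the share in which WT replicate 3 led was no higher among the chosen promoters than among all. This outcome was nearly fixed, because the choice took most covered promoters. The chosen sets held 11618, 10825 and 10818 promoters, against 13691, 13562 and 13576 in the sets of all, so the shares could hardly differ. The chosen sets were also far larger than the set of members, so the comparison does not test the members.

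The gap ran from 500 to 2606 bp. It was at least 750 bp at 273 members, at least 1000 bp at 130, at least 1500 bp at 28 and at least 2000 bp at 6. Just inside the threshold lay KPNA5 at 500 bp and ADRA1B and MMP16 at 501 bp, and just outside it WDR70 and MAFA at 499 bp and DMTF1 at 498 bp. WT replicate 3 and KO replicate 1 at MMP16 covered 3161 and 2660 bp, and at MAFA WT replicate 3 and KO replicate 1 covered 2500 and 2001 bp. The values give no break between members and the promoters just short of the threshold. Another 15 promoters had the gap but no KO peak within 1 kb and were left out by the rule. They included CIITA, the master regulator of MHC class II genes, with a gap of 1563 bp, and HLA-DMA, which loads peptides onto MHC class II molecules, with 1305 bp.

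Members had broad blocks. Among covered promoters whose lowest WT value was 500 to 1499 bp, 0.186% were members, and the share was 1.31% at 1500 to 2499 bp, 12.7% at 2500 to 3499 bp, 32.8% at 3500 to 4499 bp and 50.9% from 4500 bp upwards. A wide WT value is part of what the rule needs, so this rise is a property of the choice. The whole 6000 bp window lay under peaks at 33 and 34 members in WT replicates 1 and 2, at 2 in WT replicate 3 and at none in a KO list.

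Their peaks ranked low by fold enrichment, but not by −log10 q, in the 4 lists of low enrichment. Ranked by fold enrichment within its own list, the peak near a member's 5′ end had a median percentile of 24.2 in WT replicate 3 and of 30.8, 33.7 and 39.7 in KO replicates 1 to 3. At the other covered promoters these were 52.6, 53.4, 55.7 and 58.8. In WT replicates 1 and 2 members had medians of 74.3 and 75.6 and the others of 72.4 and 72.9. The median −log10 q was 52.8 at members and 55.6 at the others in WT replicate 3, and 71.7 and 71.3, 51.1 and 52.3, and 57.6 and 57.3 in KO replicates 1 to 3. Both measures are averages over the whole width of a broad peak.

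Which side of the 5′ end was lost was measured as the mean WT minus the mean KO covered length on each side. The median loss was 663 bp upstream and 925 bp downstream, and a median of 58.4% of the lost bp lay downstream. A member was called downstream at 75% or more, upstream at 25% or less, and both otherwise. By this measure 94 members (15.6%) lost mainly downstream, 35 (5.79%) mainly upstream and 475 (78.6%) on both sides. Over the 13415 covered promoters with a positive loss, the median was 57.5%, with 11.2% downstream, 6.21% upstream and 82.6% on both sides. With the 3 WT lists, the side of the loss at the members was near that of covered promoters in general. Somewhat more of the members lost mainly downstream.

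**Figure D2:**
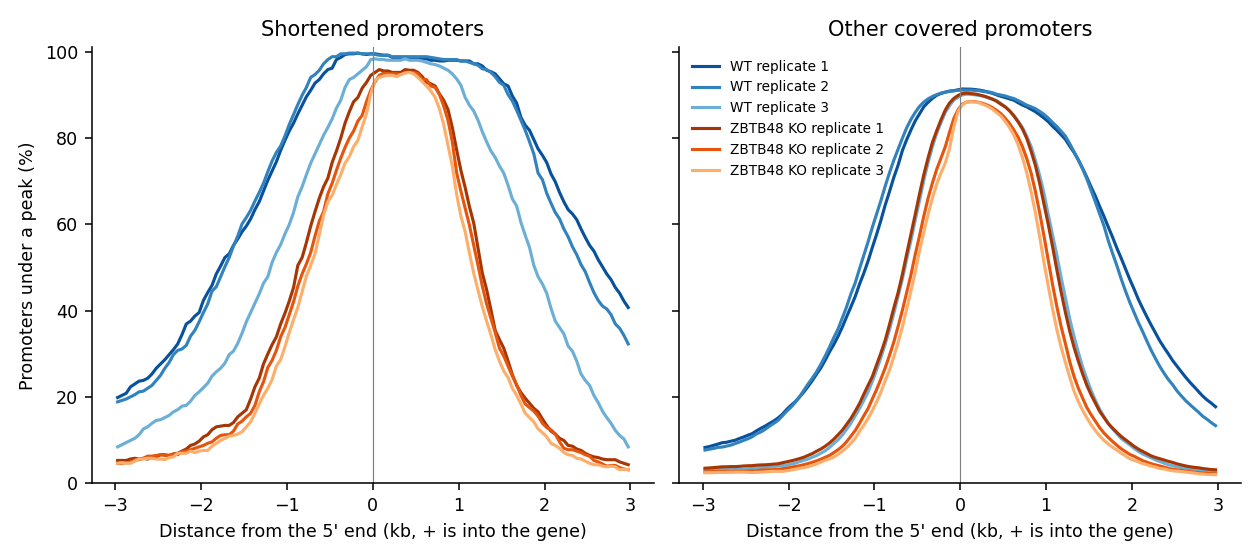
Share of promoters under a peak (%, vertical axis) by distance from the 5′ end (kb, positive into the gene) in each of the 6 lists, for the shortened and the other covered promoters. At 1525 bp downstream 71.9% of the shortened promoters are covered in WT replicate 3 and 26.0 to 31.3% in the KO lists, while at the other promoters these are 21.5% and 13.6 to 20.5%. WT replicates 1 and 2 cover 92.5 and 92.2% of the shortened and 68.6 and 67.8% of the other promoters there.

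Taking WT replicate 3 alone changed this picture. The median share of lost bp downstream was 73.3%, and 292 members (48.3%) lost mainly downstream, 160 (26.5%) mainly upstream and 152 (25.2%) on both sides. Over covered promoters with a positive loss in that comparison, the median was 58.8%, with 34.5% downstream, 23.6% upstream and 41.9% on both sides. Members thus more often lost bases on 1 side, mostly inside the gene, when WT replicate 3 was set against the KO lists, while WT replicates 1 and 2 were longer at both ends.

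**Figure D3:**
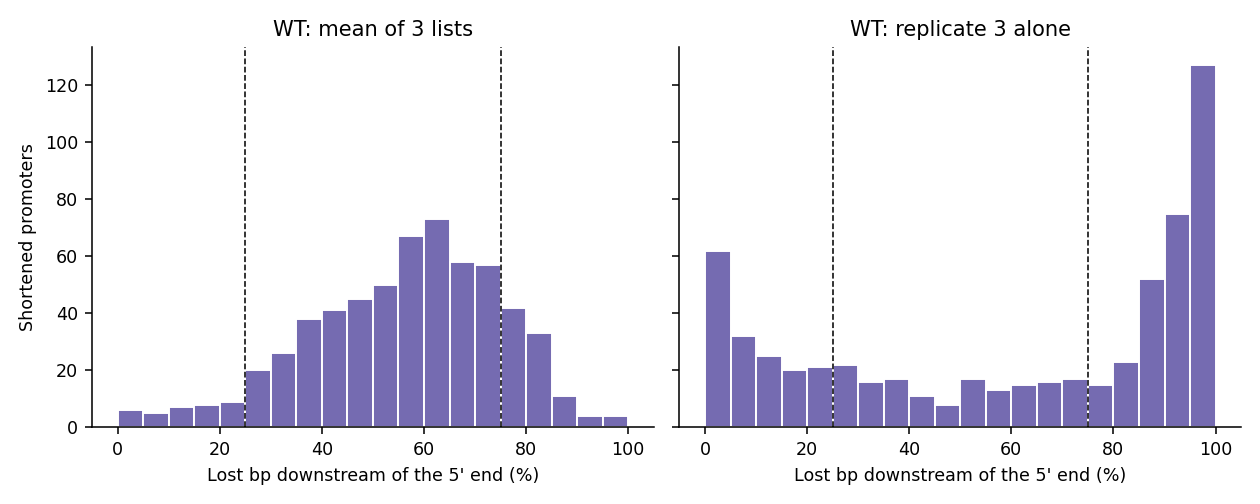
Number of shortened promoters (vertical axis) by the percent of lost bp that lay downstream of the 5′ end, with the mean of the 3 WT lists (left) or WT replicate 3 alone (right) as the WT value. Dashed lines mark 25% and 75%, and 475 members lie between them on the left and 152 on the right.

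The profile around the 5′ end shows the same in each list. At 25 bp downstream of the 5′ end, a peak covered 98.3 to 99.5% of members in the WT lists and 93.0 to 95.2% in the KO lists. At 1025 bp downstream the shares were 97.8, 97.8 and 92.2% in WT replicates 1 to 3 and 72.5, 67.7 and 61.9% in KO replicates 1 to 3. At 1525 bp they were 92.5, 92.2 and 71.9% against 31.3, 29.5 and 26.0%. At 975 bp upstream they were 81.6, 83.1 and 59.9% against 42.2, 39.1 and 34.9%. The shares of WT and KO were closer at 25 bp than at these distances. At the other covered promoters they were close at 25 bp too, at 90.0 to 91.4% in WT and 87.7 to 90.3% in KO. Further out, WT replicates 1 and 2 parted from the KO lists there as well, while WT replicate 3 did so less. At 1525 bp downstream the shares were 68.6, 67.8 and 21.5% in the WT lists and 20.5, 15.9 and 13.6% in the KO lists. At 975 bp upstream they were 57.7, 62.4 and 26.3% against 27.4, 21.7 and 18.9%.

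The side differed between members with and without a divergent neighbour. The 423 members with no other protein-coding 5′ end in the window had a median of 60.5% of the loss downstream, and 80.4% with WT replicate 3 alone. The 107 members with a divergent 5′ end within 1 kb upstream had medians of 50.2% and 48.2%. Upstream of such a gene lies the body of its neighbour, but whether this bears on the side was not tested. Other covered promoters with a divergent neighbour were not measured. Divergent neighbours were found at 17.7% of members and 12.7% of the other covered promoters. Because of shared windows the 604 members lay in 515 distinct loci, of which 437 held 1 member, 68 held 2 and 10 held 3 or more.

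Stretches of at least 200 bp that every WT and no KO list covered were found in 589 members, 669 in all, with a median length of 605 bp. Of these, 378 lay beyond the downstream end of the KO peak, 246 beyond its upstream end and 45 between KO-covered stretches. Such stretches lay at both ends of 71 members, at the downstream end only of 303 and at the upstream end only of 171. In 44 members the stretch was internal, with bases under a KO peak on both sides of it, though not always from the same KO list.

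**Figure D4:**
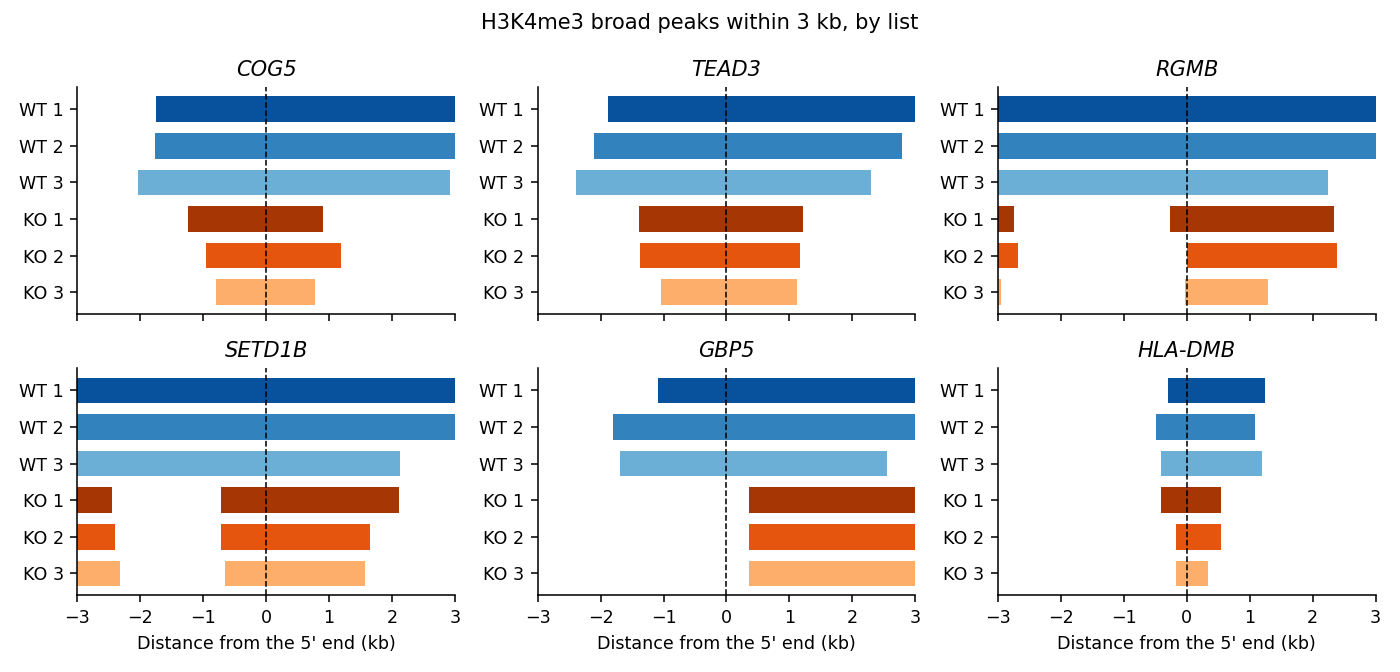
Peaks within 3 kb of the 5′ end (dashed line) at 6 shortened promoters, 1 row per list, against distance from the 5′ end (kb, positive into the gene). COG5 and TEAD3 are trimmed at both ends, RGMB and SETD1B are split upstream of the 5′ end in the KO lists, the KO peaks of GBP5 begin 351 to 364 bp inside the gene, and HLA-DMB ends 341 to 547 bp downstream in KO against 1087 to 1246 bp in WT.

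COG5, a subunit of the Golgi tethering complex COG, had the largest gap. It is on the minus strand of chromosome 7 with its 5′ end at 107563920. Its peaks covered 4752, 4764 and 4963 bp in WT replicates 1 to 3 and 2145, 2146 and 1573 bp in KO replicates 1 to 3, or 4826 ± 119 against 1955 ± 331 bp (SD, n = 3 each). The WT values were close together and all at least 2606 bp above the KO values, with WT replicate 3 the highest. This order depended on the peaks kept, as the gap was -1573 bp with peaks whose fold enrichment reached 4 and -2146 bp with an equal covered length per list. These are in size the full lengths of KO replicates 3 and 2, so a WT list had no peak left in the window. DUS4L, a tRNA dihydrouridine synthase homologue, and the read-through gene DUS4L-BCAP29 start at 107563971 on the other strand and share this block, so the 3 members are 1 event. The block ended 2926 to 3906 bp inside COG5 in WT and 774 to 1196 bp inside it in KO.

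TEAD3, a DNA-binding partner of the Hippo effectors YAP and TAZ, was also trimmed at both ends. It covered 4879, 4892 and 4691 bp in WT and 2602, 2544 and 2161 bp in KO. The groups were separated by 2089 bp, and the 3 WT values lay close together. PPDPF, named for a role in pancreatic progenitor cells, covered 5452, 5509 and 4421 bp in WT and 2408, 2329 and 2272 bp in KO. Here WT replicate 3 lay between the other WT lists and the KO lists, and the KO lists differed by little. With peaks whose fold enrichment reached 4, the gaps of TEAD3 and PPDPF were -2161 and -2272 bp. Both are in size the full length of KO replicate 3, so a WT list had no peak left there.

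RGMB, a co-receptor for bone morphogenetic proteins, lost a stretch upstream of its 5′ end. It covered 6000, 6000 and 5252 bp in WT and 2866, 2701 and 1367 bp in KO. Upstream alone all WT lists covered the full 3000 bp and the KO lists 520, 309 and 78 bp. A separate KO peak lay further upstream, and the 2429 bp between it and the KO peak at the gene was the longest lost stretch of all members. Downstream, the peak of WT replicate 3 ended at 2251 bp, short of the 2345 and 2393 bp of KO replicates 1 and 2 and beyond the 1288 bp of KO replicate 3, and 8.26% of the loss in that comparison lay downstream.

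SETD1B, a methyltransferase that itself places H3K4me3, showed the same internal split. It covered 6000, 6000 and 5132 bp in WT and 3389, 2988 and 2901 bp in KO. The lost 1606 bp ran from 2329 to 724 bp upstream of the 5′ end. With an equal covered length per list the gap of SETD1B was -2988 bp. That is in size the full length of KO replicate 2, so a WT list had no peak left there. MICA, a stress-induced ligand of the NKG2D receptor, covered 3733, 3724 and 3543 bp in WT and 1377, 1355 and 1983 bp in KO, and 3000 against 833, 819 and 1422 bp of that upstream. At MICA the downstream part was nearly equal in the groups.

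Members that lost mainly inside the gene included MOGS, a glucosidase of N-glycan processing in the endoplasmic reticulum, with 4199, 5056 and 3799 bp in WT and 1975, 1982 and 1795 bp in KO. ARHGEF40, a guanine nucleotide exchange factor, covered 4768, 4624 and 4566 bp in WT and 2911, 2702 and 2649 bp in KO. TMED4, a cargo receptor of the early secretory pathway, covered 3845, 3696 and 3988 bp in WT and 2094, 2064 and 2043 bp in KO. In these genes 75 to 80.8% of the loss was downstream with 3 WT lists, and 94.5 to 99.5% with WT replicate 3 alone. Their upstream ends in WT replicate 3 thus nearly matched the KO lists.

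The remaining members among the 15 largest gaps were LRRC45, ZFAND5, EFR3A, RPS2, SON and MRC2, with gaps of 1961, 1897, 1807, 1756, 1712 and 1695 bp. LRRC45 is a centrosome linker protein, ZFAND5 a regulator of protein degradation, EFR3A a plasma membrane scaffold for a lipid kinase, RPS2 a small-subunit ribosomal protein, SON a splicing cofactor of nuclear speckles and MRC2 a collagen receptor. At MRC2 the highest WT value was the 5584 bp of WT replicate 3, and at ZFAND5 it was the 5057 bp of the same list. At LRRC45, RPS2 and EFR3A WT replicate 3 was instead the lowest of the WT lists.

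At most members the KO peak still covered the 5′ end, which the rule favours by requiring a KO peak within 1 kb. A peak lay over the 5′ end of 593 to 601 members in each WT list and of 573, 557 and 558 in KO replicates 1 to 3. All 3 KO lists covered the 5′ end of 549 members, and none did so at 29. Those with the largest gaps were RNF151, a RING finger protein, MZT2B, a γ-tubulin complex component, GBP5, LIG4, the ligase of non-homologous end joining, and PDGFRA, a receptor for platelet-derived growth factor. Of these RNF151, MZT2B and LIG4 have another protein-coding 5′ end in the window. RNF151 lies in the same locus as RPS2, with overlapping windows and 1510 lost bp in each, so they are not separate events. PDGFRA covered 5419, 6000 and 3341 bp in WT and 2172, 1956 and 2226 bp in KO, with WT replicate 3 nearer to KO than to the other WT lists.

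GBP5, an interferon-induced guanylate-binding protein of inflammasome activation, is on the minus strand of chromosome 1 with its 5′ end at 89272860. It covered 4088, 4801 and 4243 bp in WT and 2636, 2649 and 2641 bp in KO, the closest agreement of KO lists among the members named here. WT peaks began 1088, 1801 and 1695 bp upstream of the 5′ end, whereas KO peaks began 364, 351 and 359 bp downstream of it. The lost stretch held the 5′ end itself, from 1088 bp upstream to 350 bp downstream.

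Interferon-response genes were not common among the members, with 4 of the 70 covered (5.71%) against the background of 4.34%. GBP3, another guanylate-binding protein, covered 3463, 3576 and 2679 bp in WT and 1690, 1865 and 1770 bp in KO, with 98.2% of the loss downstream for WT replicate 3. IFI44L, an interferon-induced gene, covered 3868, 3955 and 2818 bp in WT and 2166, 1594 and 1844 bp in KO. WARS1, the tryptophan tRNA synthetase that interferon induces, covered 5832, 5798 and 5393 bp in WT and 3589, 4713 and 4445 bp in KO. At these 3 genes WT replicate 3 was the lowest WT list. Within 250 bp upstream, on either strand, GBP3 and WARS1 each hold a match to the interferon γ-activated sequence (GAS), searched as TTCNNNGAA, at 15 and 142 bp. IFI44L and WARS1 hold a match to the interferon-stimulated response element (ISRE), searched as TTTC and TTTC with 2 bases between, the latter at 55 bp. Neither motif marks the members, as GAS was found in 4.30% of members and 4.93% of other covered promoters and ISRE in 2.81% and 2.35%.

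The study described MHC class II genes from these samples, and named ZBTB48 targets by binding and lower expression in KO clones, partly in earlier work. Both lists were thus picked for loss in KO and are not independent evidence of a direction. Of 5 named ZBTB48 targets MTFP1 and VWA5A were members (40%), against 4.34% of all covered promoters. MTFP1, a mitochondrial fission regulator, covered 4309, 4195 and 4000 bp in WT and 3090, 1805 and 3062 bp in KO. VWA5A, a von Willebrand factor A domain protein, covered 1661, 1700 and 1173 bp in WT and 574, 261 and 0 bp in KO. PXMP2, a peroxisomal membrane protein, had a gap of 444 bp and SNX15, a sorting nexin, of 408 bp, both under the threshold. The study reports that the SNX15 promoter kept its H3K4me3 in KO clones. By ChIP-qPCR it found more H3K4me3 at the MTFP1 promoter in WT than in KO clones. It also reports that, taken globally, H3K4me3 profiles at ZBTB48 binding sites stayed constant between the genotypes, with a reduction at a subset of sites. The telomeric letters TTAGGG were found within 250 bp upstream in 4.14% of members and 7.38% of other covered promoters.

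Of 17 covered genes of the MHC class II axis HLA-DRA and HLA-DMB were members (11.8%), against 4.34% of all covered promoters. Every WT value exceeded every KO value at 12 of the 17 (70.6%), against 51% of all covered promoters. The rule asks for a KO peak within 1 kb of the 5′ end, and 5 of the 17 had a peak there in all 6 lists. HLA-DRA, the nearly invariant α chain of HLA-DR, covered 3441, 2930 and 2057 bp in WT and 0, 979 and 0 bp in KO, so it passed through the peak of KO replicate 2. HLA-DMB, the β chain of the peptide-exchange factor HLA-DM, covered 1547, 1576 and 1613 bp in WT and 953, 715 and 519 bp in KO. It is among the narrowest members, and its WT values were close to each other, at 1579 ± 33.1 bp (SD, n = 3). At HLA-DMB, 82.4% of the loss was downstream of the 5′ end, and 81.2% for WT replicate 3 alone. None of the 20 genes of MHC class I and peptide processing was a member, and their median gap was -122 bp. Reads mapping to several places were removed by the authors, which can lower coverage in near-identical HLA sequence.

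**Figure D5:**
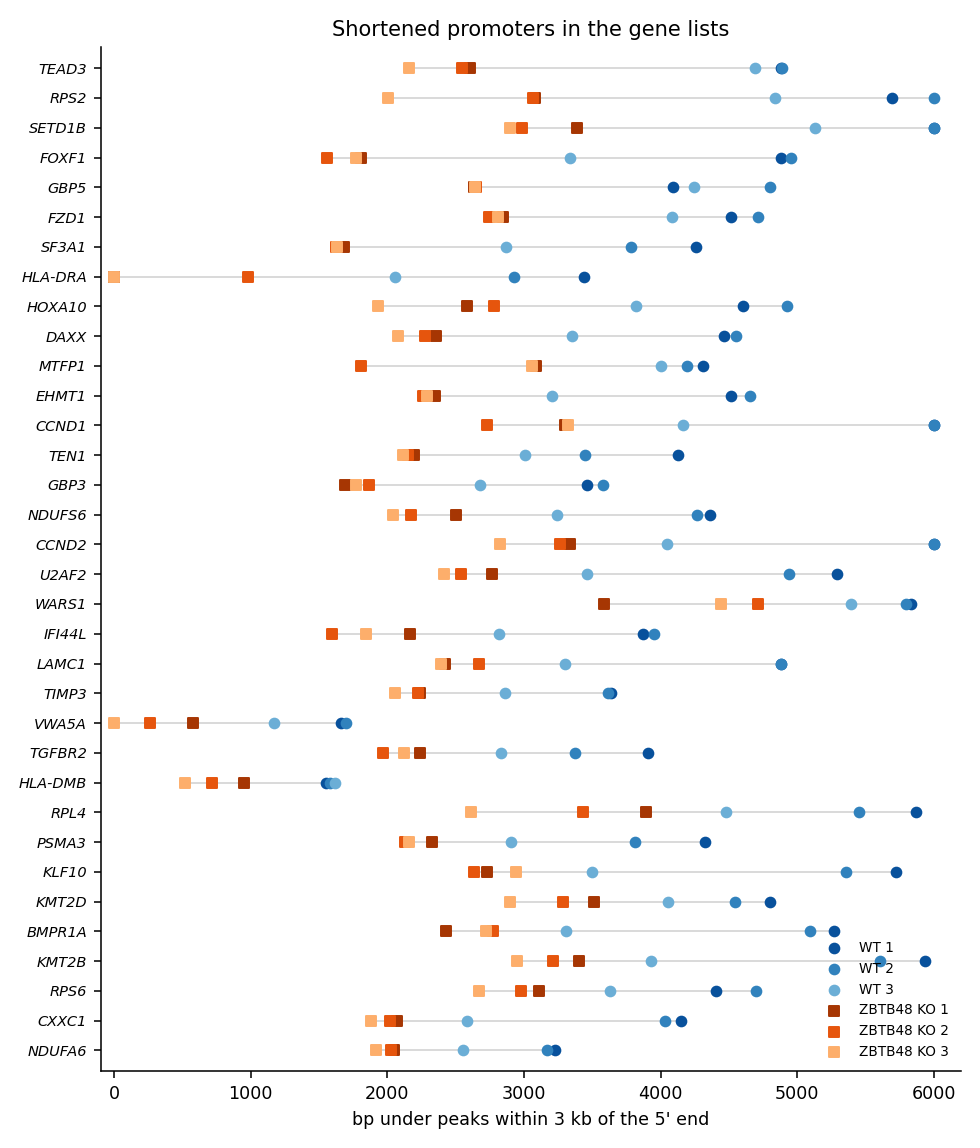
Covered length within 3 kb of the 5′ end (bp, horizontal axis) in the WT (circles) and KO (squares) lists at the shortened promoters that belong to a gene list, ordered by the gap between the lowest WT and the highest KO value. WT replicate 3 is the lowest WT list at most of them and the highest at HLA-DMB, where it covers 1613 bp.

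Among the 18 gene lists, chromatin regulators had the highest share after the ZBTB48 targets. Of 29 covered histone methyltransferase and demethylase genes 5 were members (17.2%), although the median gap over the list was 12 bp against 4 bp over all covered promoters. They were SETD1B, its targeting subunit CXXC1, which binds unmethylated CpG, the methyltransferases KMT2B and KMT2D, and EHMT1, a methyltransferase of H3 lysine 9. KMT2D covered 4801, 4548 and 4057 bp in WT and 3513, 3282 and 2898 bp in KO, and KMT2B 5933, 5607 and 3930 bp in WT and 3403, 3211 and 2946 bp in KO. CXXC1 covered 4152, 4030 and 2583 bp in WT and 2068, 2018 and 1880 bp in KO, just past the threshold with a gap of 515 bp. EHMT1 covered 4518, 4655 and 3205 bp in WT and 2350, 2261 and 2292 bp in KO. The related genes KMT2A and SETD1A were not members and had gaps of -212 and -33 bp.

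FZD1, a Wnt receptor, covered 4519, 4710 and 4080 bp in WT and 2848, 2745 and 2813 bp in KO. TGFBR2, the type II TGF-β receptor, covered 3906, 3376 and 2835 bp in WT and 2241, 1968 and 2125 bp in KO. With TEAD3 these made 3 of 38 covered TGF-β, Wnt and Hippo genes (7.89%), against 4.34% of all covered promoters. BMPR1A, a receptor for bone morphogenetic proteins, was the 1 member among 14 covered osteoblast and bone matrix genes (7.14%). FOXF1, a forkhead factor of mesenchyme, covered 4884, 4957 and 3336 bp in WT and 1810, 1555 and 1773 bp in KO, and HOXA10 4604, 4923 and 3819 bp in WT and 2583, 2782 and 1930 bp in KO. They were 2 of 57 covered developmental transcription factors (3.51%).

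The D-type cyclins CCND1 and CCND2, which start the G1 phase, were 2 of 45 covered cell cycle genes (4.44%) and shared a loss upstream. CCND1 covered 6000, 6000 and 4163 bp in WT and 3303, 2728 and 3325 bp in KO, and upstream alone 3000, 3000 and 1476 bp against 428, 439 and 330 bp. CCND2 covered 6000, 6000 and 4050 bp in WT and 3336, 3261 and 2824 bp in KO. At both, WT replicate 3 lay well below the other WT lists. DAXX, a chaperone of histone H3.3 whose partner is ATRX, and TEN1, a subunit of the telomeric CST complex, were members. They were 2 of 20 covered telomere genes (10%), against 4.34% of all covered promoters. Every WT value exceeded every KO value at 55% of these telomere genes and at 51% of all covered promoters. DAXX covered 4464, 4553 and 3349 bp in WT and 2357, 2277 and 2080 bp in KO. ZBTB48 itself had a gap of -34 bp and was not a member.

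Housekeeping groups were near the background. RPS2, RPL4 and RPS6 were 3 of 63 ribosomal protein genes (4.76%), NDUFA6 and NDUFS6 2 of 63 oxidative phosphorylation genes (3.17%), and PSMA3, SF3A1 and U2AF2 3 of 51 proteasome and splicing genes (5.88%). LAMC1, a laminin chain, and TIMP3, an inhibitor of matrix proteases, were 2 of 41 matrix and adhesion genes (4.88%). KLF10 was the 1 member of 37 immediate early and stress genes (2.70%), and none of 30 NF-κB and TNF genes was a member.

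Gene families by symbol, chosen after the members were seen, had uneven shares. Histone genes had 12 members of 55 covered (21.8%), of which 9 lay in the clusters of chromosome 6 and several share windows, such as H3C2 with H2AC4 and H4C2. H3C2 covered 5129, 5958 and 4755 bp in WT and 3142, 2965 and 3085 bp in KO, with 82.7% of the loss downstream. H3-3B, which encodes the replication-independent variant H3.3, covered 5106, 5104 and 2520 bp in WT and 1470, 1648 and 1750 bp in KO. The median gap of the 55 histone genes was -13 bp, against 4 bp over all covered promoters. Genes of the RBM, SRSF and HNRNP families of RNA-binding proteins had 8 members of 65 (12.3%), led by RBM12, which shares its 5′ end with CPNE1, and HNRNPK. HNRNPK covered 5757, 5221 and 4113 bp in WT and 3108, 3012 and 2816 bp in KO. The C2H2 zinc finger genes had 14 of 478 (2.93%), the solute carriers 7 of 240 (2.92%) and the ZBTB genes 0 of 41.

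The members were spread over all 22 chromosomes. Chromosome 6 had the highest share of its covered promoters among the members, 54 of 776 (6.96%), followed by chromosomes 22 (6.87%), 17 (6.77%) and 20 (6.11%). Chromosomes 13 and 15 had the lowest, at 1.69% and 1.73%.

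In sequence, members were somewhat richer in CpG than the other covered promoters. The median was 3.42 CpG per 100 bp within 3 kb of the 5′ end against 2.97, and 8.49 against 7.69 within 500 bp. Within 250 bp upstream, on either strand, TGACG, the core of the cAMP response element, was found in 37.4% of members and 28.8% of other covered promoters. CCAAT was found in 35.9% and 34.0% and TATAAA in 7.12% and 5.34%. A match is a run of letters in the reference genome and does not show that a factor binds there.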

How the data were processed

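H3K4me3 ChIP-seq of 3 WT and 3 ZBTB48 KO U2OS clones was analysed from 1 broad peak list per library. Groups and replicate numbers came from the labels. According to the methods and the processing notes, the authors used Trimmomatic for trimming, Bowtie2 2.3.5.1 for alignment to GRCh38 and MACS2 2.1.1.2 in paired-end mode for broad peaks, after taking out duplicates and reads with several map positions. Whether an input was given for each list is not given in the sources used here. The lists deposited by the authors hold a score, which was not used, a fold enrichment ratio and −log10 p and q values, each averaged over a peak. They hold no counts, so depth is unknown, no interval could be computed and the authors' test on reads (DiffBind 3.2.1) was not repeated.

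Covered length was computed from merged peaks around the MANE Select or canonical 5′ ends of GENCODE release 44, with Python 3.11.15 and numpy 2.4.6. Positions are 1-based on GRCh38. Sequences came from the reference genome. Lost stretches of at least 200 bp were covered in all WT and no KO list. Named were the 15 largest gaps, 3 promoters on each side of the threshold, 5 per side class, 5 whose 5′ end no KO list covered, and members of 18 gene lists. Members, lists and rules were chosen with earlier results of these data known. In all, 17 alternatives were tried. The counting was checked on simulated lists. A few items are not reported here.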

Additional observations from a re-analysis of the deposited data

How the results depend on the processing

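No paired analysis was possible because the results come from no test and replicate numbers name separate clones. The number of shortened promoters, 604, moved to 159 when the fold enrichment had to reach 4, 397 with an equal covered length per list, 130 with a gap of at least 1000 bp and 1435 with one of at least 250 bp. Leaving out 1 list gave 617 to 10788, the last without WT replicate 3. It was 1281 without KO replicate 1. Of the 397 members under equal covered length 395 were among the 604. The reverse count of 0 became 6 with equal covered length, 1 with a gap of at least 250 bp, 21 with WT replicate 3 alone and 0 to 2 with 1 list left out.

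The median share of lost bp downstream, 58.4%, was 64.4% with fold enrichment of at least 4, 53.5% in a window of 2 kb, 53.8% with a gap of at least 1000 bp, 59.6% with a peak over the 5′ end in all 3 KO lists, 72.9% with WT replicate 3 alone and 56.9 to 61.0% with 1 list left out. The held-out shares for KO replicates 2 and 3, 12.5 and 20.9%, became 4.71 and 9.82% with fold enrichment of at least 4 and 4.02 and 5.89% with a gap of at least 1000 bp. With a gap of at least 250 bp the 3 shares were 14.5, 36.8 and 59.5%. The lead asked for changed with the gap, and the shares over all promoters were not computed under these settings. The shifts therefore say nothing particular to the chosen promoters.

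Of the 15 largest gaps, those of COG5, DUS4L and DUS4L-BCAP29 became -1573 bp with fold enrichment of at least 4, TEAD3 -2161, PPDPF -2272, ZFAND5 -2365 and EFR3A -1600 bp. RGMB, LRRC45, RPS2, SETD1B, SON, MRC2 and ARHGEF40 fell to 0 bp there, and MOGS alone kept its gap, at 1817 bp. With equal covered length COG5, DUS4L and DUS4L-BCAP29 had -2146 bp and SETD1B -2988 bp. Each negative value is in size the full length of a KO list, so a WT list had no peak left in that window. Depth is unknown, so a shorter peak cannot be told from a shallower library. At a gap of 0 bp the lowest WT value equalled the highest KO value, so no difference was left. The cutoff of 4 lies just under the median fold enrichment of WT replicate 3, 4.18, and of the KO lists, 4.31 to 4.63. The medians of WT replicates 1 and 2 were 13.6 and 14.1. Why those peaks had low values in WT, and the cause of the other shifts, were not tested.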
